A study of Mus musculus with 12 samples.

Results

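The comparison set the hearts of mice with streptozotocin diabetes against those of vehicle-treated mice. It used the 4 arrays labelled diabetes mellitus without angiotensin IV (DM) and the 4 labelled negative control (NC), 8 of the 12 arrays of the series, and the 19505 genes that a named probe set measured. NC mice had been injected with the vehicle for 5 days. DM mice had been injected with streptozotocin into the peritoneum for 5 days and were kept if fasting glucose reached at least 16.7 mM after 2 weeks. The other 4 arrays (DM_AngIV) came from mice made diabetic in the same way that also received angiotensin IV at 2.88 mg/kg/day, from the end of week 8 to the end of week 24. Each array held RNA of the myocardium of 1 mouse, and all 3 groups are labelled 6 months. The sources used here do not give strain, sex, age at injection or the hour of tissue collection. Selection on glucose means that DM holds only animals that responded to the toxin, while no glucose value of any single mouse was used here.

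Streptozotocin enters the beta cells of the pancreas through the glucose transporter GLUT2 and kills them, so that the animal lacks insulin. Heart muscle burns mostly fatty acids and takes up glucose under the control of insulin. Without insulin, fatty acids delivered by adipose tissue act as ligands of PPAR transcription factors, and FoxO factors, which insulin signalling through AKT holds outside the nucleus, become active. The heart also oxidises ketone bodies and branched-chain amino acids, and much of its metabolism follows a circadian clock inside the muscle cell.

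Values are log2 expression after robust multi-array averaging, and a difference is always DM minus NC. Array medians lay between 4.12 and 4.19. The 95th percentile of the array's reporter control probe sets, 4.96, served as the background level, and between 42.8% and 43.3% of genes lay above it on the 8 arrays. Across genes, r between any pair of the 8 arrays was 0.977 to 0.990. The mean level of 10 ventricular muscle markers was 10.07 ± 0.07 in NC and 10.06 ± 0.03 in DM (SD, n = 4 each). Eif2s3y, a transcript of male mice, read 7.80 to 7.99 in NC and 7.74 to 8.21 in DM, above background on all 8 arrays. The other male transcripts measured were dimmer, with Uty near the background level and Kdm5d below it. Transcripts of atrial muscle stood apart on 5 of the 8 arrays. Myl7, a myosin light chain of atrial muscle, read 10.08, 4.28, 7.90 and 3.72 on NC replicates 1 to 4 and 8.86, 9.68, 3.97 and 8.10 on DM replicates 1 to 4, so both groups held arrays with and without it.

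In the diabetic hearts 3 genes fell and 0 rose at a Benjamini-Hochberg adjusted p below 0.05 in limma, which is 0.0154% of the 19505 genes. They were Arntl, which encodes the circadian activator BMAL1, Abat, the GABA transaminase of mitochondria, and Epha4, a receptor for ephrins. At an unadjusted p below 0.05, 915 genes were higher in DM (4.69% of those tested) and 830 were lower (4.26%). All 4 DM values lay above all 4 NC values in 477 genes (2.45%) and below them in 408 (2.09%), and 49.8% of genes had a positive difference. Among the 8372 genes with a mean above background, 480 (5.73%) were higher and 418 (4.99%) lower at that unadjusted p. These shares are the background against which the counts of each gene list are read. A list member counted at the unadjusted p is not called unless it is 1 of those 3 genes.

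The number of calls depended on how many dim genes shared the adjustment. With only the 8850 genes above background on at least 4 of the 12 arrays, 20 genes passed, 14 higher and 6 lower, and the same 20 passed among the 9752 genes above the median level. Arntl, Abat and Epha4 were joined by Myl1, Ivd and Wsb1 on the lower side. On the higher side stood Mt2, Tspan4, Tns2, Zbtb16, Abca1, Slc43a2, Cdk6, Acot1, Per3, Scd4, Mylip, Rhobtb1, Mt1 and Ankrd12. Of these 17 added genes, 14 had an adjusted p of 0.047 with the background filter, just below the threshold. Over all genes their adjusted p-values lay between 0.0843 for Mt2 and 0.107 for Ankrd12. In bulk tissue, fewer cells of a type and less RNA per cell cannot be told apart, and this holds for every difference given here.

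Arntl read 5.72, 5.94, 5.89 and 5.57 on the NC arrays and 4.44, 4.21, 4.51 and 4.44 on the DM arrays. The groups were far apart relative to their spread, and no DM array was above background. Arntl fell by 1.38 ± 0.14 (SE, n = 4 each; limma adjusted p = 0.000752), and since DM has only an upper bound it was at least 1.76-fold lower. Abat read 7.06, 7.46, 7.46 and 7.36 in NC and 5.15, 5.16, 5.66 and 5.95 in DM. Its DM replicates 1 and 2 were the lowest, and all 4 were below every NC array. Abat fell by 1.86 ± 0.22 (limma adjusted p = 0.00316), the largest fall of any gene measured. Epha4 read 6.54, 6.62, 6.81 and 6.62 in NC and 5.66, 5.63, 5.40 and 5.80 in DM, and fell by 1.03 ± 0.14 (limma adjusted p = 0.00999). Arntl and Abat passed with any 1 array left out, whereas Epha4 had an adjusted p of 0.0537 without DM replicate 2 and 0.0591 without NC replicate 3. Without the 5 arrays that carried atrial transcripts, which leaves 2 NC arrays and 1 DM array, limma called 0 genes, with 510 higher and 505 lower at an unadjusted p below 0.05, and the 3 differences were -1.24, -1.75 and -1.23 (adjusted p = 0.947 each).

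**Figure D1:**
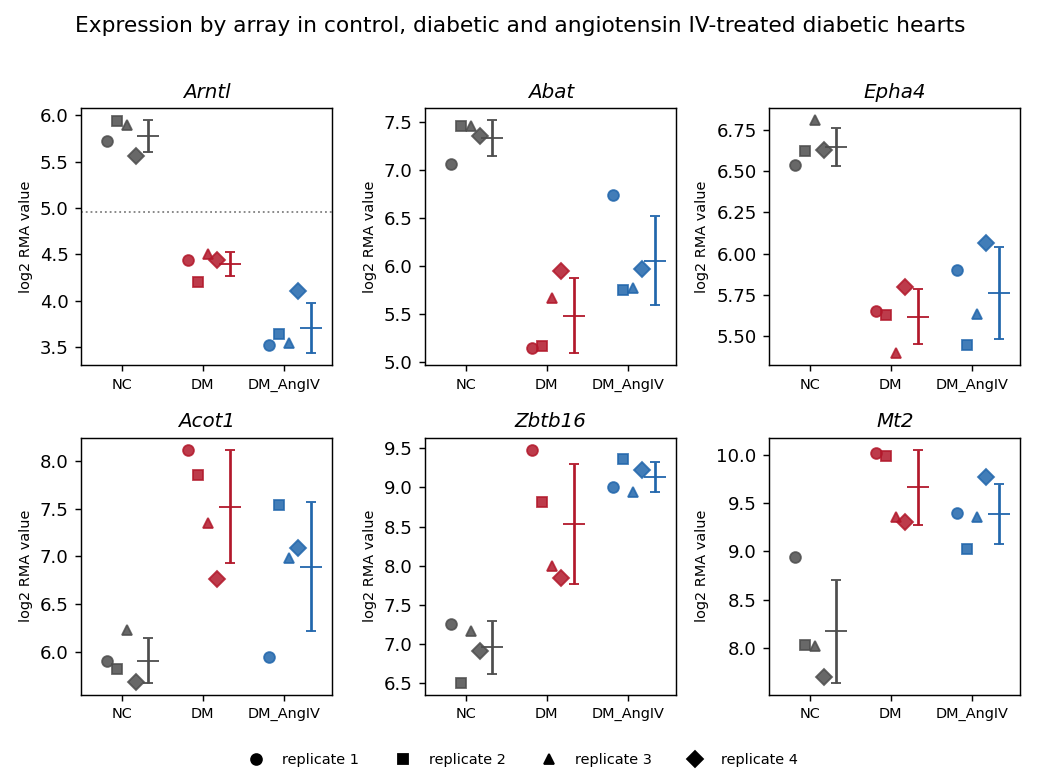
Log2 values (vertical axis) of 6 genes on each of the 12 arrays, by group; the marker shape gives the replicate, bars show the mean and SD of 4 arrays, and the dotted line in the Arntl panel is the background level of 4.96. Arntl, Abat and Epha4 lie lower on all 4 DM arrays than on any NC array, and Acot1, Zbtb16 and Mt2 lie higher, with the widest spread inside DM for Acot1 and Zbtb16.

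The heart's clock is a feedback loop. BMAL1 (Arntl) pairs with CLOCK or NPAS2 on E-box motifs and drives the Per and Cry repressors, the REV-ERB receptors (Nr1d1, Nr1d2), Ciart and the PAR-domain factors Dbp, Tef and Hlf, which in turn act on D-box motifs. Of 18 clock genes measured, 7 were higher and 3 lower at an unadjusted p below 0.05, against 4.69% and 4.26% of all genes. In 7 of the 18 the 2 groups did not overlap, 4 with DM above and 3 with DM below, against 2.45% and 2.09% of all genes. The list's median difference was 0.32, against -0.001 over all genes, and it lay between 0.21 and 0.38 with any 1 array left out.

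The 3 lower members were Arntl and its 2 partners. Clock read 7.75, 7.83, 7.87 and 7.79 in NC and 7.46, 7.23, 7.44 and 7.54 in DM, a difference of -0.39 ± 0.10 (limma adjusted p = 0.247). Npas2 had a difference of -0.30 ± 0.14 (limma adjusted p = 0.559) and was below background on all 8 arrays. Arntl, the called gene, had the largest difference in size within this loop in the values as deposited. Its DM values lay below background, so its rank by size is not settled. The 2 partners of Arntl did not pass over all genes.

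Among the repressors, Per3 read 5.56, 4.92, 5.39 and 5.56 in NC and 6.31, 6.46, 6.03 and 5.92 in DM, with no overlap. Its difference was 0.82 ± 0.15 (limma adjusted p = 0.0985), and it was among the genes that passed with dim genes left out (adjusted p = 0.047). Per2 read 4.80, 4.38, 4.54 and 4.70 in NC and 5.42, 5.32, 5.11 and 5.02 in DM, a difference of 0.61 ± 0.13 (limma adjusted p = 0.145). Since all NC values of Per2 lay below background, the bound is at least 1.19-fold higher. Per1, at 0.22 ± 0.17, and Cry1, at 0.02 ± 0.15 and below background on all 8 arrays, had overlapping groups, as did Cry2 at 0.34 ± 0.14. Nr1d2, a REV-ERB receptor, had 6.91 to 7.38 in NC and 7.57 to 7.81 in DM with a difference of 0.49 ± 0.12 (limma adjusted p = 0.189). Its paralogue Nr1d1 had 6.74, 7.77, 7.12 and 7.35 in NC and 6.71, 7.15, 7.77 and 7.50 in DM, and the difference of 0.04 ± 0.23 was smaller than the spread inside either group.

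Among the output factors, Tef read 4.36, 4.62, 4.73 and 4.72 in NC and 5.02, 5.11, 5.31 and 5.04 in DM, a difference of 0.51 ± 0.11 (limma adjusted p = 0.152). Its NC values were also below background, and the bound is at least 1.12-fold higher. Dbp read 7.82, 8.17, 8.58 and 8.77 in NC and 8.38, 9.18, 9.69 and 9.56 in DM. DM replicate 1 lay inside the NC range and the others above it, for a difference of 0.87 ± 0.29 (limma adjusted p = 0.372). Ciart, a repressor of the BMAL1 and CLOCK pair, read 4.16, 3.76, 3.89 and 5.37 in NC and 4.43, 5.50, 6.12 and 6.16 in DM, a difference of 1.26 ± 0.36 (limma adjusted p = 0.295). Here too DM replicate 1 lay with the controls, and NC replicate 4 lay with the diabetic arrays. Bhlhe41, a repressor that binds E-boxes, had the same order in DM, at 6.82 on replicate 1 and 7.93 to 8.21 on the others, against 7.29 to 7.61 in NC. The spread of Dbp, Ciart and Bhlhe41 inside DM was therefore wider than that of Arntl, Clock and Per3.

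**Figure D2:**
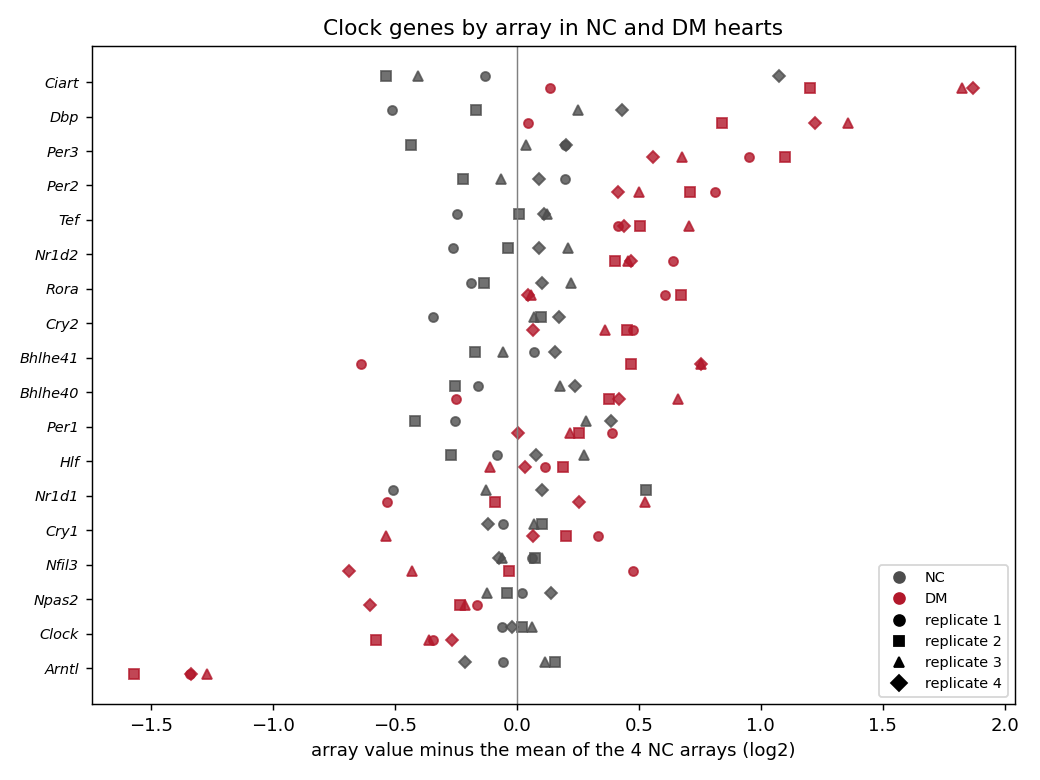
Values of the 18 clock genes on each NC and DM array, as the distance from the NC mean of the gene on the log2 scale (horizontal axis), ordered by the DM minus NC difference. Arntl and Clock lie to the left on all 4 DM arrays, Per3, Per2, Tef and Nr1d2 to the right, and DM replicate 1 (circle) lies apart from the other DM arrays for Ciart, Dbp and Bhlhe41.

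The Ciart, Tef and Per3 promoters are shown because they hold motifs through which the loop is known to act, and that of Arntl because it is the called gene. They are the 250 bases before the annotated start in RefSeq on GRCm38.p6, read 5′ to 3′ on the gene's strand. Capitals mark the E-box CACGTG and the D-box TTANGTAA, searched on both strands. The Arntl window is chr7:113207215-113207464 (plus strand), that of Ciart chr3:95882229-95882478 (minus strand), that of Tef chr15:81802423-81802672 (plus strand) and that of Per3 chr4:151044666-151044915 (minus strand).
Arntl: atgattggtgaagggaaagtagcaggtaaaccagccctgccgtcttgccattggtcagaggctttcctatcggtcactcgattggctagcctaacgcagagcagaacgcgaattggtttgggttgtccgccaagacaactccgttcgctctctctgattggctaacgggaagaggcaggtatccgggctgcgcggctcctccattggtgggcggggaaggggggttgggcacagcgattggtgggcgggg
Ciart: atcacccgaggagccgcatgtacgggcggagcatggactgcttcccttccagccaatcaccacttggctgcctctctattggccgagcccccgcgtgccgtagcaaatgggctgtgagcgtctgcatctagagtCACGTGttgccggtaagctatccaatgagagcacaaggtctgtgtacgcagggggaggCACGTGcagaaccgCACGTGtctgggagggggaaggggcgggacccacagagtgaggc
Tef: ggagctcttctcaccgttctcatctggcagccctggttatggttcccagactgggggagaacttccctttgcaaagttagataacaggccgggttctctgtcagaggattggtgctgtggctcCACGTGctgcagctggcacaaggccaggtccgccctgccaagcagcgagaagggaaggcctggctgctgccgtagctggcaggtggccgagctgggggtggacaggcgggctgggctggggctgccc
Per3: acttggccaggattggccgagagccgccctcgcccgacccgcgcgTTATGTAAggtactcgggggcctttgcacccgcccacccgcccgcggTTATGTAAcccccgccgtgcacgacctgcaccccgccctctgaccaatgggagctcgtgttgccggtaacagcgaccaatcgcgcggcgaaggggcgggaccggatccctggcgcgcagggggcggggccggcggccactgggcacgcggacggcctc
The Ciart window held 3 E-boxes, starting 116, 58 and 44 bases before the start, the Tef window 1 E-box at 127 bases, and the Per3 window 2 D-boxes at 205 and 158 bases. Neither motif was found in the Arntl window. An E-box stood in 6.02% of all 32851 promoter windows of this length and a D-box in 2.06%. The table held 16 of the 18 clock genes. Of these, 5 (Cry1, Per1, Ciart, Bhlhe41 and Tef) had an E-box at 1 or more annotated starts and 1 (Per3) had a D-box. Of the 5 genes with an E-box, Ciart and Tef were higher in DM at an unadjusted p below 0.05, and Cry1, Per1 and Bhlhe41 did not pass it.

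Abat belongs to a set of mitochondrial enzymes that break down branched-chain amino acids and GABA, and that set lay lower as a whole. Leucine, isoleucine and valine are first transaminated by BCAT2, then decarboxylated by the branched-chain ketoacid dehydrogenase complex, whose subunits are BCKDHA, BCKDHB and DBT, and then pass through acyl-CoA dehydrogenases and carboxylases to acetyl-CoA and propionyl-CoA. Of the 22 members measured, 21 had a negative difference and 12 were lower at an unadjusted p below 0.05, against 4.26% of all genes. None was higher at that threshold, and 9 had all 4 DM values below all 4 NC values, against 2.09%. Only Abat was called. The list's median was -0.26, against -0.001 over all genes, and between -0.33 and -0.22 with any 1 array left out. The count of 12 lay between 9 and 14 in the same fits, and 4 members were lower at that p without the arrays that carried atrial transcripts, a fit that holds 2 NC arrays and 1 DM array.

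At the first step, Bcat2 read 7.03, 7.33, 7.31 and 7.44 in NC and 6.78, 6.61, 6.96 and 6.87 in DM, a difference of -0.47 ± 0.12 (limma adjusted p = 0.222). For the ketoacid dehydrogenase, Bckdhb read 7.09, 7.50, 7.38 and 7.42 in NC and 6.23, 6.08, 6.91 and 6.85 in DM, a difference of -0.83 ± 0.18 (limma adjusted p = 0.144). Dbt read 7.31, 7.35, 7.63 and 7.54 in NC and 6.77, 6.66, 7.11 and 7.05 in DM, a difference of -0.56 ± 0.13 (limma adjusted p = 0.152). The groups were separate for both subunits, with DM replicates 1 and 2 lowest, whereas those of Bckdha overlapped at -0.25 ± 0.10. The regulators of this complex did not go opposite ways. Ppm1k, the phosphatase that activates it, had a difference of -0.44 ± 0.13 with separate groups, and Bckdk, the kinase that inactivates it, one of -0.17 ± 0.11 with overlapping groups.

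Further down, Ivd, the isovaleryl-CoA dehydrogenase of leucine breakdown, read 7.79, 7.87, 8.06 and 8.18 in NC and 7.09, 7.13, 7.48 and 7.57 in DM. Its difference was -0.66 ± 0.13 (limma adjusted p = 0.106 over all genes and 0.047 with dim genes left out). Acadsb, which acts on the isoleucine branch, read 7.86, 8.13, 8.17 and 8.10 in NC and 7.44, 7.42, 7.63 and 7.78 in DM, a difference of -0.50 ± 0.11 (limma adjusted p = 0.152). To complete the count, Mccc1 at -0.42 ± 0.12 and Pcca at -0.46 ± 0.15, the biotin-carrying subunits of the methylcrotonyl-CoA and propionyl-CoA carboxylases, also had separate groups, while Mccc2 (-0.35) and Aldh6a1 (-0.27) overlapped. The other enzyme of the GABA shunt, Aldh5a1, was the 1 member with a positive value, 0.01 ± 0.15. Separate groups were thus found for the transaminase Bcat2, for Bckdhb and Dbt of the dehydrogenase complex, and for later dehydrogenases and carboxylase subunits. They were not found for Bckdha or Mccc2. Within the GABA shunt they were found for Abat and not for the next enzyme. Genes of amino acid synthesis and transport driven by ATF4 did not share it, with 15 of 21 positive, 1 lower at the unadjusted p and a median of 0.05.

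**Figure D3:**
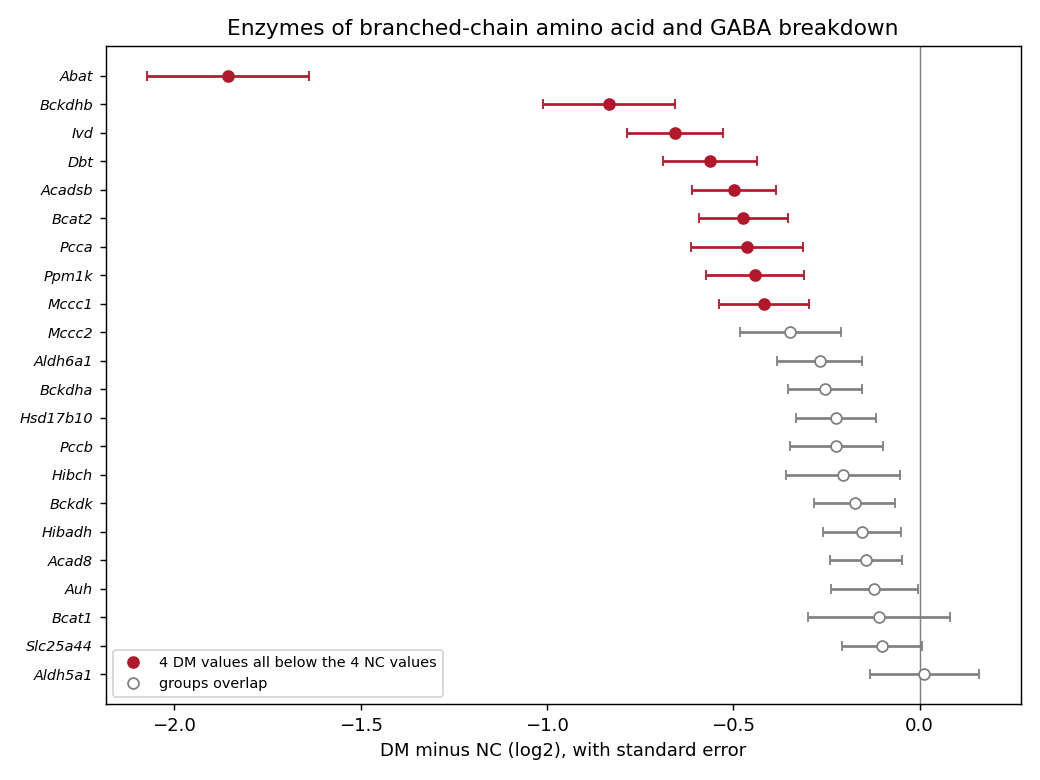
Difference DM minus NC on the log2 scale with its standard error for the 22 genes of branched-chain amino acid and GABA breakdown; filled points have no overlap between the 4 DM and the 4 NC arrays. All points but that of Aldh5a1 lie left of 0, and the 9 filled ones lie between -1.86 for Abat and -0.42 for Mccc1.

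Genes of ketone body use had negative differences at 2 steps. Oxct1, which activates acetoacetate and sets the capacity to burn ketones, read 10.42, 10.44, 10.46 and 10.47 in NC and 9.52, 9.37, 10.19 and 10.29 in DM. Bdh1, which oxidises hydroxybutyrate, read 8.00, 7.23, 7.54 and 8.23 in NC and 5.53, 5.76, 6.97 and 7.29 in DM. For both, DM replicates 1 and 2 were far below the controls and replicates 3 and 4 close to them, and Bdh1 overlapped. The differences were -0.60 ± 0.18 for Oxct1 (limma adjusted p = 0.308) and -1.36 ± 0.41 for Bdh1 (limma adjusted p = 0.316). Of 9 genes measured in this list, these 2 were lower and 0 higher at an unadjusted p below 0.05, and the median was -0.08. The transporter Slc16a1, at 0.09 ± 0.11, and the thiolase Acat1, at -0.00 ± 0.09, had overlapping groups.

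Genes through which the heart imports, stores and oxidises fatty acids lay higher. Among 27 genes of fatty acid oxidation, 23 had a positive difference, 10 were higher and 1 lower at the unadjusted p, and the median was 0.18. Among 24 genes of lipid uptake and storage, 18 were positive, 10 were higher and 1 lower, with a median of 0.20. Among 16 thioesterase and uncoupling genes, 11 were positive, 6 were higher and 1 lower, with a median of 0.17. The background for these counts is 4.69% higher and 4.26% lower. None was called over all genes, and Acot1 passed with dim genes left out. Without 1 array the counts of higher genes were 5 to 13, 6 to 11 and 5 to 7 in the 3 lists. The count was 5 for oxidation without NC replicate 1 or DM replicate 1, and 6 for uptake and storage without DM replicate 1. With atrial markers as a covariate the counts were 10, 10 and 6. Without the arrays with atrial transcripts, 22, 15 and 11 members had a positive difference, against 9580 of all 19505 genes. That fit holds 2 NC arrays and 1 DM array, so it cannot show whether the counts of higher genes hold without atrial signal.

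The largest differences of the thioesterase and uncoupling list were those of Acot1, Ucp3 and Acot2. Acot1 and Acot2 are a cytosolic and a mitochondrial thioesterase, which release fatty acids from coenzyme A. Acot1 read 5.90, 5.82, 6.23 and 5.68 in NC and 8.12, 7.85, 7.35 and 6.77 in DM, a difference of 1.61 ± 0.30 (limma adjusted p = 0.0985). Acot2 read 8.03, 7.95, 8.20 and 7.88 in NC and 9.76, 9.15, 8.96 and 8.48 in DM, a difference of 1.07 ± 0.24 (limma adjusted p = 0.152). Ucp3, the uncoupling protein of muscle mitochondria, read 6.43, 7.14, 7.07 and 5.98 in NC and 8.68, 8.31, 7.98 and 7.57 in DM, a difference of 1.48 ± 0.43 (limma adjusted p = 0.308). In all 3 the groups were separate, replicate 1 was the highest DM array and replicate 4 the lowest. The coding sequences of the Acot genes are close to each other, so their probe sets may share signal.

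Transport into mitochondria was represented by Cpt1a, the carnitine palmitoyltransferase form of liver and fetal heart, with 6.05 to 6.59 in NC and 7.48, 7.24, 7.03 and 6.72 in DM, a difference of 0.73 ± 0.19 (limma adjusted p = 0.244). Cpt1b, the form of adult muscle, was brighter, at 9.50 to 9.70 in NC and 10.06, 10.02, 9.88 and 9.76 in DM, with a difference of 0.33 ± 0.11. Decr1, needed for unsaturated fatty acids, had a difference of 0.48 ± 0.16, and Hsd17b4, of the peroxisome, one of 0.35 ± 0.12. The exception was Echs1, the short-chain enoyl-CoA hydratase, which also serves valine breakdown, with a difference of -0.31 ± 0.11 (limma adjusted p = 0.429).

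Storage and release of lipid had the same sign. Pnpla2, the first lipase of triglyceride breakdown, read 9.64, 9.85, 9.74 and 9.74 in NC and 10.61, 10.43, 10.18 and 10.08 in DM, a difference of 0.58 ± 0.13 (limma adjusted p = 0.152). Its inhibitor G0s2 was the 1 lower member of the list, at -0.33 ± 0.15 with overlapping groups. Lipe, hormone-sensitive lipase, read 6.12, 5.93, 5.97 and 5.82 in NC and 7.40, 6.93, 6.35 and 6.37 in DM, a difference of 0.80 ± 0.22 (limma adjusted p = 0.262). The fatty acid binding protein Fabp4 had 10.72 to 10.89 in NC and 11.14 to 11.35 in DM, a difference of 0.44 ± 0.10 (limma adjusted p = 0.152). The lipid droplet coats Plin2, Plin4 and Plin5 had differences of 0.63, 0.43 and 0.50. Of 9 adipocyte markers, 1 was positive, and the list's mean level was 4.34 to 5.30 in NC and 4.58 to 4.60 in DM. Adipoq, Plin1, Cidec, Lep, Retn and Ucp1 were above background on 0 of the 8 arrays, and Cidea and Cox7a1 on all 8. Car3 was above background on 3 NC arrays, at 5.28, 7.07 and 6.13, and on 0 DM arrays. The part of adipocyte RNA in these differences was not tested.

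Abca1 and Scd4 stood outside these lists of oxidation. Abca1, the cholesterol exporter, read 5.01, 5.01, 5.16 and 5.50 in NC and 7.23, 6.40, 6.02 and 5.92 in DM, a difference of 1.22 ± 0.22 (limma adjusted p = 0.0985). Scd4, the stearoyl-CoA desaturase of the heart, read 4.79, 5.28, 5.52 and 4.47 in NC and 7.69, 6.57, 6.67 and 5.98 in DM, a difference of 1.71 ± 0.32 (limma adjusted p = 0.0985). Apod, a lipid-binding apolipoprotein, read 6.62, 5.94, 6.42 and 6.26 in NC and 8.46, 7.28 and 7.08 on DM replicates 2 to 4, with replicate 1 higher still, a difference of 1.65 ± 0.32 (limma adjusted p = 0.106). Each had separate groups, and DM replicate 1 was the highest array in all 3.

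Scd4 belonged to the list of sterol and lipid synthesis, most of which lay the other way. Of 29 members, 21 had a negative difference, 7 were lower (4 without NC replicate 3) and 3 higher at an unadjusted p below 0.05, and the median was -0.20. Msmo1, a sterol demethylating oxidase, read 4.40, 4.21, 4.58 and 4.73 in NC and 3.38, 3.97, 3.59 and 3.74 in DM, a difference of -0.81 ± 0.17 (limma adjusted p = 0.128), but lay below background on all 8 arrays. Srebf2, the transcription factor that drives cholesterol synthesis, was brighter, at 6.91, 7.02, 6.86 and 6.92 in NC and 6.48, 6.65, 6.74 and 6.60 in DM, a difference of -0.31 ± 0.09 (limma adjusted p = 0.317). Hmgcs1, Fdps, Cyp51, Sc5d and Idi1 made up the 7, with differences from -0.53 for Idi1 to -0.35 for Fdps, and Idi1, Cyp51 and Fdps were below background on all 4 DM arrays. Of the 7 lower members, 3 had a mean above background over the 12 arrays.

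Glucose use was divided. Pdk4, the kinase that switches off pyruvate dehydrogenase when fat is burnt, read 8.03, 8.44, 8.36 and 7.32 in NC and 10.31, 9.73, 9.18 and 8.58 in DM. The groups were separate, again with DM replicate 1 highest and replicate 4 lowest, with a difference of 1.41 ± 0.42 (limma adjusted p = 0.308). Pdk1 had a difference of 0.26 ± 0.11, and the 4 genes of the complex itself, Pdha1, Pdhb, Dlat and Dld, had differences between -0.06 and 0.11. In the list of 30 genes of glucose transport, glycolysis and glycogen, 9 were positive, 5 were higher and 5 lower at the unadjusted p, and the median was -0.09.

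Of the glucose transporters, Slc2a4 (GLUT4, the insulin-responsive one) read 7.85, 8.00, 8.02 and 8.13 in NC and 7.69, 7.70, 7.85 and 7.99 in DM, a difference of -0.19 ± 0.12 (limma adjusted p = 0.681). Slc2a1 (GLUT1) had 6.44 to 6.72 in NC and 5.66, 6.05, 6.37 and 6.47 in DM, a difference of -0.46 ± 0.17. Ppp1r3c, which directs a phosphatase to glycogen, read 9.04, 9.33, 9.29 and 9.72 in NC and 8.51, 8.92, 8.67 and 8.75 in DM, a difference of -0.63 ± 0.17 (limma adjusted p = 0.277). Pfkfb3, which makes the activator of phosphofructokinase, was above background on 0 NC arrays and 1 DM array, so its difference was not measurable. Hexokinases went both ways, Hk1 at 0.30 ± 0.10 and Hk2 at -0.45 ± 0.20. Txnip, a glucose-induced inhibitor of glucose uptake, had 9.86 to 10.43 in NC and 11.39, 11.11, 10.61 and 10.29 in DM, a difference of 0.79 ± 0.23 (limma adjusted p = 0.308).

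Most targets of FoxO factors and of muscle atrophy had positive differences. Of 32 measured, 28 had a positive difference, 15 were higher and 1 lower at an unadjusted p below 0.05, against 4.69% and 4.26% of all genes, and 10 had all DM arrays above all NC arrays, against 2.45%. The median was 0.25. None was called. With 1 array left out the count of higher members was 9 to 16, lowest without DM replicate 2. With atrial markers as a covariate it was 14. Without the arrays with atrial transcripts, 21 of the 32 had a positive difference, against 9580 of all 19505 genes. With 2 NC arrays and 1 DM array, that fit cannot show whether the count of higher members holds. Pik3ip1, an inhibitor of phosphoinositide 3-kinase, read 7.95, 7.52 and 7.61 on NC replicates 1, 3 and 4, with replicate 2 lower still, and 8.76, 8.91, 8.14 and 8.36 on the DM arrays, a difference of 1.03 ± 0.21 (limma adjusted p = 0.123). Fbxo32, the ubiquitin ligase atrogin-1, read 7.59, 7.46, 7.57 and 7.61 in NC and 8.36, 8.11, 7.91 and 7.86 in DM, a difference of 0.51 ± 0.12 (limma adjusted p = 0.201). Fbxo31, another F-box ligase subunit, had 7.04 to 7.17 in NC and 7.44 to 7.56 in DM, a difference of 0.38 ± 0.10 (limma adjusted p = 0.269).

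Foxo1 itself, the factor in the study's title, read 5.74, 5.51, 5.41 and 5.66 in NC and 6.00, 5.76, 5.49 and 5.64 in DM. The groups overlapped and the difference was 0.14 ± 0.14 (limma adjusted p = 0.826). Foxo3 had 5.54 to 5.77 in NC and 5.89 to 6.01 in DM, a difference of 0.26 ± 0.11 (limma adjusted p = 0.488). Insr, the insulin receptor, had a difference of 0.32 ± 0.13 (limma adjusted p = 0.484), with DM replicate 4 inside the NC range. Among further members, Bnip3, Cdkn1b, Sesn1 and Eif4ebp1 had separate groups and differences of 0.55, 0.41, 0.55 and 0.46. The lower member was Sesn3, at -0.32 ± 0.11, also with separate groups. The wider list of insulin signalling had 15 of 28 positive, 3 higher and 2 lower at the unadjusted p, and a median of 0.02.

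Genes induced by glucocorticoid hormones, some of which fasting also induces, lay higher with a wide spread. Of 23 measured, 18 were positive, 9 were higher and 1 lower at the unadjusted p, and the median was 0.39. Zbtb16, a zinc finger transcription factor, read 7.26, 6.51, 7.16 and 6.91 in NC and 9.48, 8.82, 7.99 and 7.85 in DM, a difference of 1.57 ± 0.28 (limma adjusted p = 0.0985). Mt2, a metal-binding metallothionein, read 8.94, 8.03, 8.03 and 7.70 in NC and 10.02, 9.98, 9.35 and 9.31 in DM, a difference of 1.49 ± 0.24 (limma adjusted p = 0.0843). Mt1, its neighbour in the family, read 9.69, 9.87, 9.71 and 9.72 in NC and 10.78, 10.57, 10.34 and 10.10 in DM, a difference of 0.70 ± 0.14 (limma adjusted p = 0.106). All 3 had separate groups. Fkbp5, a chaperone of the receptor, read 6.35, 4.88, 5.93 and 5.77 in NC and 8.69, 7.76, 6.02 and 6.24 in DM, so that only DM replicates 1 and 2 exceeded the NC range (difference 1.44 ± 0.47; limma adjusted p = 0.371). The count of higher members was 5 to 11 with 1 array left out, lowest without NC replicate 2 or DM replicate 1.

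Heat shock genes lay on the lower side. Of 23 measured, 18 had a negative difference, 5 were lower (3 without NC replicate 4) and 0 higher at an unadjusted p below 0.05, and the median was -0.06. Chordc1, a partner of the chaperone HSP90, read 6.41, 6.58, 6.90 and 6.65 in NC and 6.48, 5.86, 6.17 and 6.03 in DM, a difference of -0.50 ± 0.14 (limma adjusted p = 0.287). Hspb3, a small heat shock protein of muscle, had 5.27 to 5.54 in NC and 4.24, 5.16, 4.83 and 5.18 in DM, a difference of -0.56 ± 0.18 (limma adjusted p = 0.340). The other 3 were Hspa1b, Hsph1 and Dnajb1, with differences of -0.38, -0.58 and -0.56 and overlapping groups, and Hspa1b was below background on all 4 DM arrays.

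Immune genes had mostly positive differences. In the interferon response, 32 of 38 members were positive, 10 were higher (5 without NC replicate 2 and 6 without DM replicate 3) and 0 lower at the unadjusted p, and the median was 0.24. Ifi204, a DNA sensor, read 6.17, 5.81, 5.93 and 6.13 in NC and 6.94, 6.45, 6.38 and 6.56 in DM, a difference of 0.57 ± 0.13 (limma adjusted p = 0.186). Parp14, a mono-ADP-ribosyltransferase, had 4.88 to 5.09 in NC and 5.31 to 5.63 in DM, a difference of 0.45 ± 0.11 (limma adjusted p = 0.212). In antigen presentation, 15 of 20 were positive, 4 were higher and 0 lower, with a median of 0.14, and H2-D1, a class I heavy chain, had 6.47 to 6.83 in NC and 6.97 to 7.37 in DM (difference 0.48 ± 0.13; limma adjusted p = 0.252). Transcripts of class I genes are close to each other in sequence, so their probe sets may share signal. Of the 38 interferon members, 18 had a mean above background over the 12 arrays.

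Among 37 cytokine and complement genes, 28 were positive, 9 were higher and 1 lower, with a median of 0.22, and the count of 9 was 3 to 11 with 1 array left out (3 without NC replicate 4, 4 without DM replicate 1, and 5 without NC replicate 2 or DM replicate 2). Ccl8, a monocyte-attracting chemokine, had the largest difference of the list and read 3.44, 3.14, 2.93 and 3.98 in NC and 7.60, 6.12, 6.41 and 3.14 in DM. The 4 NC arrays were below background and 3 of the 4 DM arrays above it, so the DM mean was at least 1.81-fold higher. The difference of the values as deposited was 2.45 ± 0.71 (limma adjusted p = 0.308). Markers of macrophages were also on the positive side. Of 14 measured, 13 were positive and 6 were higher at the unadjusted p (2 without DM replicate 1, 3 without NC replicate 4 and 11 without DM replicate 4), and the mean level of the list was 5.42 to 5.61 in NC and 5.48 to 6.44 in DM, highest on DM replicate 1. Mpeg1 and Pla2g7 are not in that marker list. They were named for being among the 12 largest positive differences, so they add nothing to its counts. Mpeg1, a pore-forming protein of macrophages, was above background on 2 DM arrays, at 5.79 and 5.64, and on 0 NC arrays (at least 1.08-fold higher). Pla2g7, the platelet-activating factor hydrolase that macrophages secrete, read 4.35, 3.92, 4.56 and 4.16 in NC and 6.08, 5.11, 5.08 and 4.92 in DM, at least 1.26-fold higher, since its NC values were below background. Ccr2 and Cx3cr1 were never above background, nor were any of 6 neutrophil and 4 B cell markers. The part of macrophage RNA in the immune differences was not tested.

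Cyp1a1, the xenobiotic monooxygenase controlled by the aryl hydrocarbon receptor, had the largest positive difference of any gene measured. It read 3.19, 2.81, 2.42 and 2.10 in NC, all below background, and 5.93, 4.70, 5.30 and 4.78 in DM, of which 2 were above. The groups were separate, with a difference of 2.54 ± 0.67 (limma adjusted p = 0.247) and a bound of at least 1.16-fold. It was called when the fit held only the 8 NC and DM arrays. Ahrr, the repressor of that receptor, had a difference of 0.44 ± 0.16 with overlapping groups. Among further listed targets of the receptor, Nqo1 at 0.05 ± 0.17 and Cyp1b1 at 0.40 ± 0.31 also overlapped. Tiparp, at -0.26 ± 0.14, was below background on all 8 arrays. In the list of 20 xenobiotic genes 4 (Cyp1a1, Ephx2, Ahrr and Fmo1) were higher and 0 lower at the unadjusted p. Among the other large negative differences, Myl1, a myosin light chain, read 7.96, 7.87, 7.70 and 7.60 in NC and 7.15, 6.83, 6.75 and 6.92 in DM (difference -0.87 ± 0.17; limma adjusted p = 0.101). Itgb6, the integrin subunit that activates TGF-beta, had 6.83 to 7.10 in NC and 5.85 to 6.58 in DM (-0.69 ± 0.14; limma adjusted p = 0.128). Slc41a3, a mitochondrial magnesium transporter, had 7.99 to 8.22 in NC and 7.21, 6.97, 7.93 and 7.70 in DM (-0.66 ± 0.17; limma adjusted p = 0.227). Ephrin genes did not move as a family with Epha4, since 9 of 20 were positive, 1 was higher and 1, Epha4, was lower at the unadjusted p.

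**Figure D4:**
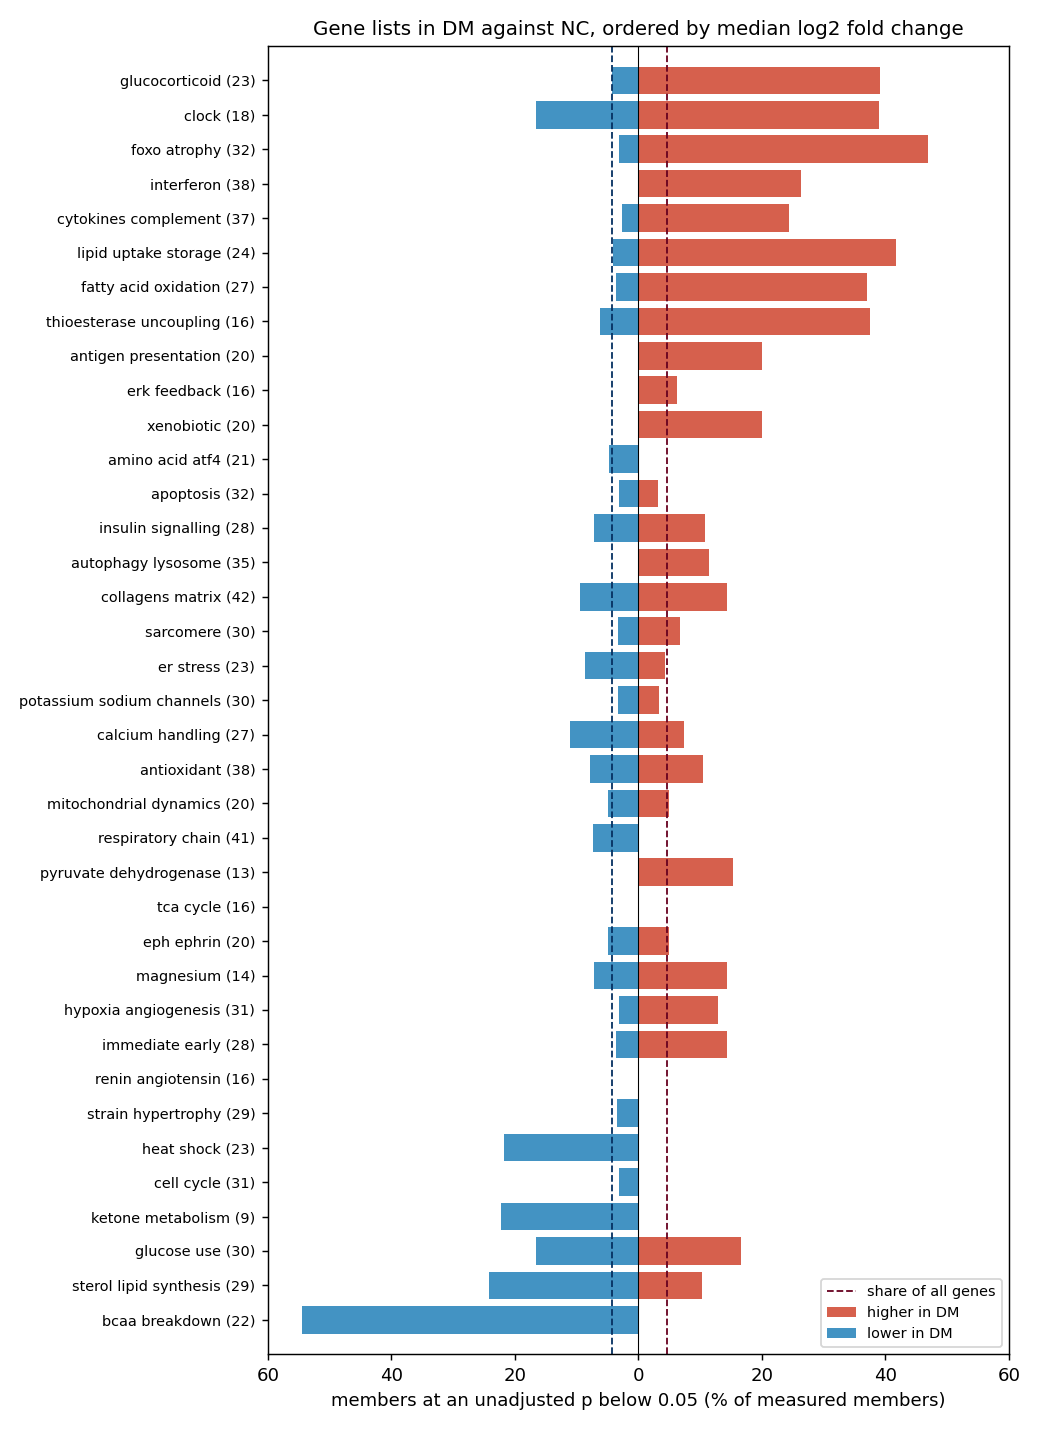
Share of the measured members of each of the 37 process lists at an unadjusted p below 0.05, higher in DM to the right and lower to the left, in percent, with the number of members in brackets; lists are ordered by median difference and dashed lines mark the shares over all 19505 genes, 4.69% and 4.26%. Breakdown of branched-chain amino acids has the longest bar to the left, 12 of 22 members, and the FoxO list the longest to the right, 15 of 32.

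The study's title names autophagy, apoptosis and fibrosis. Of 35 genes of autophagy and lysosomes, 19 were positive, 4 were higher (0 without NC replicate 2 and 2 without DM replicate 2) and 0 lower at the unadjusted p, and the median was 0.004. Map1lc3b, the autophagosome protein LC3B, read 8.55, 8.65, 8.64 and 8.71 in NC and 8.99, 9.14, 8.77 and 8.64 in DM, a difference of 0.25 ± 0.11 (limma adjusted p = 0.546). Of 32 apoptosis genes, 18 were positive, 1 was higher and 1 lower, with a median of 0.02. Bcl2, which blocks cell death, had a difference of 0.17 ± 0.14 with overlapping groups, and Aifm1, a mitochondrial flavoprotein released in cell death, had 8.69 to 8.88 in NC and 8.19 to 8.57 in DM (-0.43 ± 0.11; limma adjusted p = 0.222). Of 42 collagen and matrix genes, 21 were positive, 6 were higher and 4 lower, with a median of -0.001. The 6 higher were Tgfb2, Thbs2, Timp3, Mmp3, Col14a1 and Timp4, and the 4 lower were Col3a1, Col1a2, Col6a2 and Ltbp2. Col14a1 and Ltbp2 were below background on all 8 arrays. Of the 28 members with a mean above background over the 12 arrays, 3 were higher and 3 lower. Without NC replicate 2 or 4 or DM replicate 1 or 2 only 2 matrix genes were higher, and without NC replicate 1 it was 0 that were lower. Col1a1 and Col3a1, the main fibrillar collagens, had differences of -0.19 ± 0.16 (limma adjusted p = 0.780) and -0.45 ± 0.20 (limma adjusted p = 0.525). None of these lists had a called member.

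All 29 measured genes of strain and hypertrophy overlapped between the groups, while 2.45% of all genes had DM above NC and 2.09% below. At the unadjusted p 0 were higher and 1 lower, against 4.69% and 4.26% of all genes. In a list of this size such counts lie near those shares. Nppa, the atrial natriuretic peptide, read 10.29, 8.70, 8.79 and 8.34 in NC. In DM it read 5.12 on replicate 3 and 8.93 to 10.51 on the other arrays, and the difference of -0.39 ± 0.87 became 0.79 without that array. Of the arrays on which Myl7 was below background, DM replicate 3 had this low value, NC replicates 2 and 4 had 8.70 and 8.34, and the 4 DM_AngIV arrays had 7.33 to 9.65. Nppb, the ventricular natriuretic peptide, had a difference of 0.17 ± 0.41 and overlapping groups, and the sign also turned without DM replicate 2 or NC replicate 2. Myh7, the slow myosin heavy chain, read 10.27, 9.75, 10.22 and 10.01 in NC and 10.74, 11.58, 10.31 and 9.84 in DM, a difference of 0.55 ± 0.28 (limma adjusted p = 0.608), and Myh6, the fast one, had -0.03 ± 0.10. Respiratory chain genes had 14 of 41 positive, 0 higher and 3 lower with a median of -0.02, and the tricarboxylic acid cycle 0 in either direction. In the renin-angiotensin list 0 of 16 differed at the unadjusted p, which in so short a list is near the shares over all genes. Agtr1a, the angiotensin II receptor, had a difference of 0.16 ± 0.13 (limma adjusted p = 0.754).

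The 4 diabetic hearts were not alike. Of the 1745 genes at an unadjusted p below 0.05, DM replicates 1 and 2 were the 2 arrays farthest from the NC mean, in the direction of the difference, in 675 (38.7%). The other 5 pairs held that place in 148 to 262 genes, least often replicates 3 and 4 (8.48%). Mean shifts of several lists were also larger on replicates 1 and 2. In breakdown of branched-chain amino acids the mean member lay -0.45, -0.56, -0.28 and -0.26 from the NC mean on DM replicates 1 to 4, and in the FoxO list 0.40, 0.37, 0.11 and 0.13. For glucocorticoid genes the shifts were 0.92, 0.45, 0.09 and 0.08, and for macrophage markers 0.90, 0.39, 0.29 and -0.06. The interferon list went the other way, with 0.18, 0.10, 0.30 and 0.35, and the clock list had its lowest shift, 0.12, on replicate 1. Leaving out DM replicate 4 raised the number of called genes from 3 to 30, while leaving out replicate 1 left it at 3. No glucose or body weight of a single mouse was used here, and whether such a measure differs between the replicates was not tested.

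**Figure D5:**
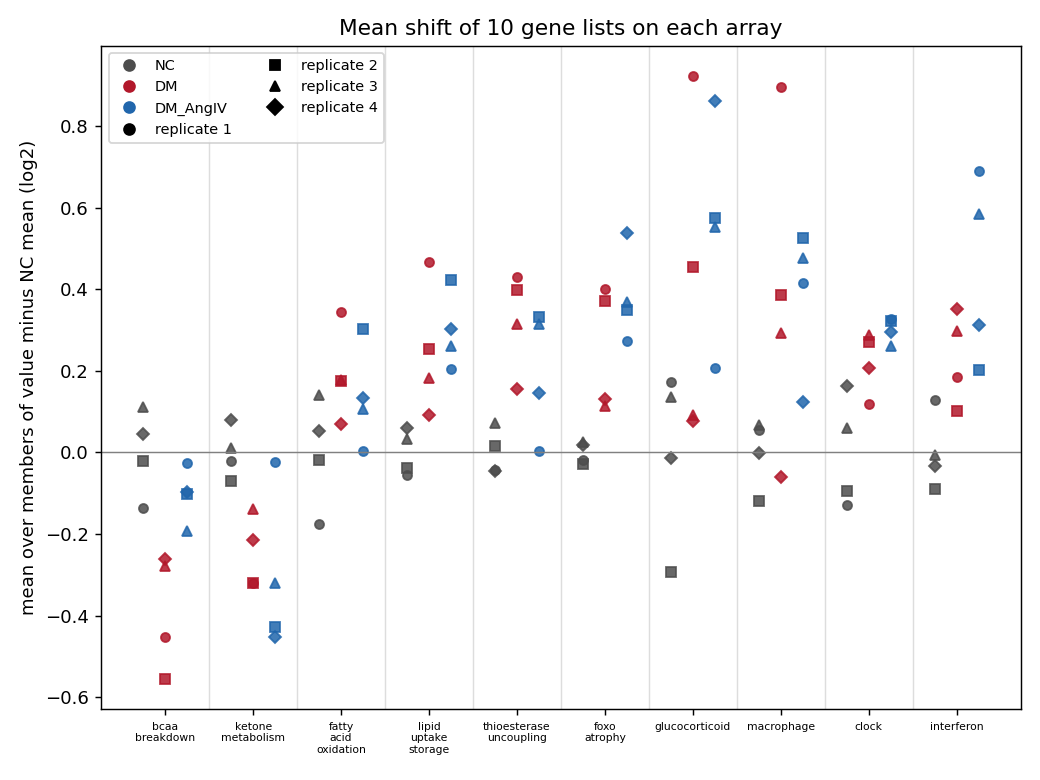
Mean over the members of 10 gene lists of the array value minus the NC mean, on the log2 scale (vertical axis), for each of the 12 arrays; colour gives the group and shape the replicate. DM replicates 1 and 2 (circle and square) lie farther from 0 than replicates 3 and 4 in the lists of branched-chain amino acid breakdown and FoxO targets, while the interferon list has the opposite order.

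The treated diabetic arrays are given beside these values, and they share the NC arrays as reference. Arntl read 3.52, 3.64, 3.55 and 4.10 in DM_AngIV, below background as in DM, so those groups have no order. Abat read 6.73, 5.74, 5.76 and 5.97 and Epha4 5.90, 5.45, 5.64 and 6.07, below every NC array. The mean shift of branched-chain amino acid breakdown was -0.03, -0.10, -0.19 and -0.10, nearer to NC than on any DM array, and that of the FoxO list was 0.27, 0.35, 0.37 and 0.54. Replicate 1 of DM_AngIV was the lowest treated array for Acot1 (5.95), Ucp3 (5.98) and Pdk4 (7.34). The other 3 treated arrays had 6.98 to 7.54, 6.67 to 8.58 and 8.67 to 9.57, and for Ucp3 replicate 4, at 6.67, also lay inside the NC range.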

How the data were processed

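Myocardial RNA of 12 mice was hybridised to single-colour arrays, 4 mice in each of NC, DM and DM_AngIV. The authors deposited log2 values made by robust multi-array averaging (RMA), per the submitters' processing notes. The sources used here give no version or settings. The table held 29129 probe sets, of which 19572 carried 1 gene symbol, 2634 had no gene name here and 6923 were controls. Where several probe sets shared a symbol (55 symbols), the one with the highest mean was kept, and 19505 genes remained. Precision is limited by the number of arrays.

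The DM minus NC contrast came from a linear model of the 3 groups over the 12 arrays (9 residual degrees of freedom), so DM_AngIV contributes to the estimate of spread. The fit used limma 3.58.1 (lmFit, eBayes; R 4.3.3) with two-sided tests and Benjamini-Hochberg adjustment over 19505 genes at 0.05, and was tested on simulated data. Of the 2634 unnamed probe sets, fitted together with the named ones, 0 were called (205 at an unadjusted p below 0.05). Background was the 95th percentile of 246 reporter control probe sets. Where 1 whole group lay at or below it and the other group's mean above it, a fold is a bound, from that mean against the background level.

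The members and the gene lists were chosen with earlier results of these data known. Named genes were the called genes, the 12 largest differences each way among genes with an unadjusted p below 0.01, separate groups and signal above background, the 3 members with the smallest p in each list, and 18 further genes taken regardless of value (15 of them measured here). Not every named gene is described above. Spon2 (-0.84), Lrrc3b (-0.83), Trp53i11 (-0.77) and Ccdc69 (-0.72), all with DM below NC, were left out. So were Etv5, Gja1, Kcne1 and Igf1r, among others. Further genes complete a count. Promoter sequences are from RefSeq (GRCm38.p6). Alternatives covered dim-gene filters, thresholds, scaling, probe set choice, variance prior, array weights, a replicate block, atrial transcripts and each array left out. Counts of list members under alternatives were added after seeing the data. Figures were drawn with matplotlib 3.10.9.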

Additional observations from a re-analysis of the deposited data

Results flagged for a closer look

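Among 132 named genes, 264 groups of 4 arrays were looked at, and in 8 of them 1 array stood apart from the other 3 by more than Dixon's critical value for 4 values. Chance flags about 1 in 20 groups. In DM replicate 1, Pla2g7 read 6.08 against 4.92 to 5.11 on the other DM arrays, and Ndrg1, a stress-induced gene, read 7.26 against 6.53 to 6.64. In DM replicate 2, Pdk1 read 9.24 against 8.79 to 8.86 and Myh6 read 11.66 against 11.85 to 11.88. In NC replicate 2, Mt1 read 9.87 against 9.69 to 9.72, Ahrr read 5.06 against 4.57 to 4.60, and Atg14, which starts autophagosome formation, read 4.93 against 5.29 to 5.36. In NC replicate 1, Magt1, a magnesium transporter, read 7.12 against 7.40 to 7.44.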

How the results depend on the processing

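The number of called genes, 3 with 0 higher and 3 lower, was 20 (14 higher, 6 lower) with either filter on dim genes, 17 (11 and 6) at an adjusted p below 0.10, 28 (16 and 12) with a trended and robust variance prior, and 0 without the arrays with atrial transcripts. With 1 array left out it ranged from 2 to 30, with 0 to 19 higher and 2 to 11 lower. With 1 array left out it was 30 without DM replicate 4, 6 without NC replicate 1 (2 higher) and 5 without NC replicate 2 (1 higher). The 8 arrays alone added Cyp1a1 and the atrial covariate added Mt2, 1 higher gene each. Genes with separate groups, 477 above and 408 below, numbered 300 and 255 with the background filter, 307 above with the median filter, 5884 and 6131 without the atrial arrays, and 676 to 949 above and 623 to 948 below with 1 array left out, as fewer values make separation easier. The sign turned for 6 uncalled genes without the atrial arrays (Spred1 -0.080, Enpep 0.085, Agtr1a -0.096, Foxo1 -0.093, Myh6 0.035, Nppb -0.37). It also turned with 1 array left out for Myh6 (range -0.059 to 0.026, positive at 0.026 without DM replicate 2 and at 0.0004 without NC replicate 3), Nppa (-1.01 to 0.79, positive without DM replicate 3 and, at 0.032, without NC replicate 1) and Nppb (-0.066 to 0.49, negative without DM replicate 2 and, at -0.0067, without NC replicate 2). The causes were not tested. Same-numbered NC and DM arrays did not deviate together (r = 0.08, -0.07, 0.04 and -0.03), and with the replicate block 3 genes were called, as without it. Of the other settings, 4 of 4 (array weights, centring, quantile normalization and the mean of probe sets) called 3 genes.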

Other observations

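Glutathione enzymes and a few contractile genes also had separate groups without passing over all genes. Of 38 antioxidant genes, 17 were positive, and 4 were higher and 3 lower at an unadjusted p below 0.05, against 4.69% and 4.26% of all genes. The 3 lower ones were glutathione S-transferases. Gstk1 had 8.42 to 8.72 in NC and 7.66 to 8.38 in DM, a difference of -0.58 ± 0.14 (SE; limma adjusted p = 0.202), and Gsta4 had 8.58 to 8.74 in NC and 8.30 to 8.47 in DM, a difference of -0.30 ± 0.09 (limma adjusted p = 0.308). The groups of Gstm2 overlapped, at -0.46 ± 0.16. The 4 higher ones were Cat, Ephx1, Gss and Hmox1.

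Among calcium handling genes 2 of 27 were higher and 3 lower at that p. Camk2b, a subunit of the calcium/calmodulin-dependent kinase II, was above background on 3 NC arrays and 0 DM arrays, at 4.63, 5.28, 5.47 and 5.36 in NC and 4.47, 3.90, 4.09 and 4.70 in DM, with 1 DM array above the lowest NC array (difference -0.90 ± 0.19; limma adjusted p = 0.128; at least 1.17-fold lower). Adcy6, an adenylyl cyclase of the beta-adrenergic pathway, had 7.64 to 7.95 in NC and 7.99 to 8.66 in DM (0.47 ± 0.14; limma adjusted p = 0.333). Of 30 sarcomere genes, Myom2 (0.44 ± 0.15), Tcap (0.41 ± 0.15) and Lmod2 (0.21) had separate groups with DM above, against 2.45% of all genes. Tnnc1 (-0.12) had separate groups with DM below, against 2.09%, and Myot (-0.80 ± 0.31) overlapped. In that list 2 were higher and 1 lower at that p, against 4.69% and 4.26%, with a median of -0.0065.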
